A study of Bos taurus with 34 samples.

Results

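Ketone body synthesis and the hormone FGF21 were described in cattle liver through 6 genes, named in advance by symbol: ACAT1, BDH1, SLC16A1, FGF21, ANGPTL4 and PDK4. All 6 were found by symbol in the authors' deposited comparison table of 14161 genes, and by the Ensembl identifier given there in the annotation of both count tables, which list 27607 genes. All 6 had thus passed the authors' filter on low values, whose rule is not given. The genes were listed with earlier results of these data known, so their values describe them and are no independent support for a pattern.

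Ketone bodies are made from acetyl-CoA in liver mitochondria when fatty acids are burned faster than the citric acid cycle takes them up, and they fuel other tissues in fasting and early lactation. In ruminants the rumen wall also makes them from butyrate. Fasting signals act on the liver largely through the nuclear receptor PPAR alpha, whose known targets in mouse include enzymes of fatty acid oxidation, the secreted hormone FGF21, the lipase inhibitor ANGPTL4 and the kinase PDK4, which spares pyruvate from oxidation.

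The comparison asks how these genes differ between liver of daughters with 1 copy of the SLICK1 allele of PRLR (SLICK) and daughters with 0 copies (FREE), all by bulls that themselves carry the allele. PRLR encodes the prolactin receptor, and the allele shortens that receptor and gives a sleek coat. The 10 SLICK samples comprised 5 daughters of Blanco and 5 of Lone Ranger, and the 8 FREE samples comprised 1 daughter of Blanco and 7 of Lone Ranger, all labelled Senepol. Age, diet and stage of lactation are not given in the labels. Another 16 samples came from animals with 2 copies (S2, 11 samples) or 1 copy (S1, 5 samples). Library columns carry animal numbers found in no sample label, so no library was tied to a genotype, and S2 against S1 was not analysed here. All values below are therefore those of the authors' deposited table of slick against free, without values per animal. The log2 fold change in that table, called log2 ratio here, is read from the table's name as SLICK over FREE, so that a positive value is higher in SLICK. The spread between animals enters only through the authors' F and p, from which an approximate 95% interval was computed for each fold change. In bulk tissue, fewer cells of a type and less RNA per cell cannot be told apart.

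In the authors' deposited table ACAT1, the enzyme of the first step of ketone body synthesis, had a positive log2 ratio of 0.31 at an unadjusted p under 0.05. BDH1, the enzyme that reduces acetoacetate to beta-hydroxybutyrate, had a negative one of -0.76 and was barely detected. FGF21, with a log2 ratio of -2.41, lay farthest from 0 of the 6 genes and had the widest interval. PDK4 had a positive log2 ratio of 0.54, the carrier SLC16A1 a negative one of -0.27, and ANGPTL4 one of -0.15, in the authors' deposited table. None of the 6 passed an adjusted p of 0.05 as deposited, which is what passing over all genes means below.

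At that threshold 0 of the 6 genes passed in the authors' deposited table, which the submitters' notes tie to edgeR, against 0.501% of all 14161 genes. By direction, 0.0918% of all genes passed as higher and 0.410% as lower in SLICK. At an unadjusted p under 0.05, 5 of the 6 genes passed in the authors' deposited table, against 16% of all genes. Of these 5, ACAT1 and PDK4 were the 2 higher ones and BDH1, SLC16A1 and FGF21 the 3 lower ones, while 7.22% of all genes passed as higher and 8.79% as lower. The adjusted p of the 6 genes ran from 0.163 to 0.722 in the authors' deposited table. The largest unadjusted p of any gene that passed the adjusted threshold was 2.27e-04, and the smallest among the 6 genes, that of ACAT1, was 0.00987.

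**Figure D1:**
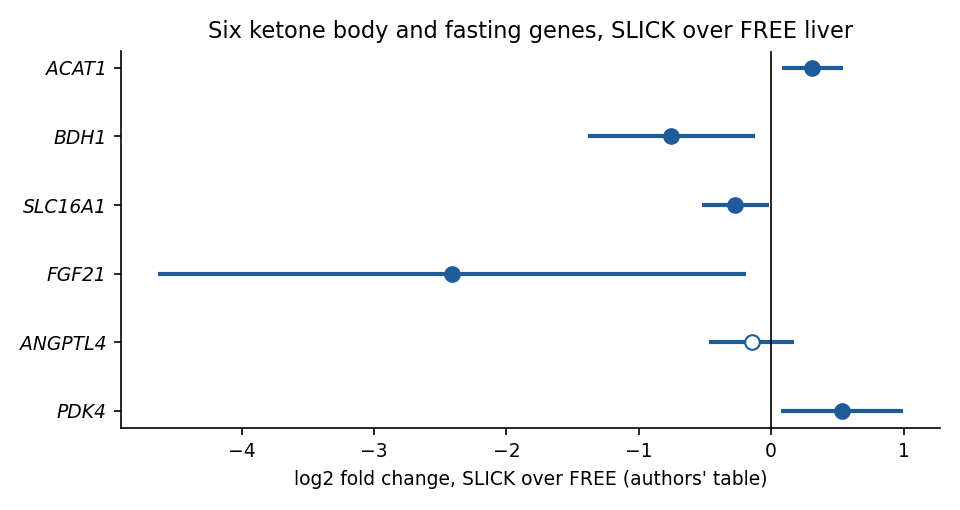
Log2 fold change of the 6 genes, SLICK over FREE, in the authors' deposited table (points), with the approximate 95% interval that the authors' F implies (lines); filled points have an unadjusted p under 0.05. The interval of FGF21, from -4.63 to -0.19, is 9.75 times as wide as that of ACAT1, and only that of ANGPTL4 spans 0.

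Among the enzymes, ACAT1, the mitochondrial acetoacetyl-CoA thiolase that joins acetyl-CoA units in the first step of the pathway, was the most abundant of the 6 genes. It lies on chromosome 15 of ARS-UCD1.2 from 17734330 to 17763541 on the + strand (ENSBTAG00000012885). It averaged 8.17 log2 CPM in the authors' deposited table, or 288 CPM, above 96.9% of all genes. The log2 ratio of ACAT1 in the authors' deposited table was 0.31 (approximate 95% interval 0.08 to 0.54), a SLICK to FREE ratio of 1.24, with an adjusted p of 0.163. Abundant genes as a whole leaned the same way: in its decile of average level the median log2 ratio was 0.10. Relative to that median, ACAT1 stood at 0.21. Of the 1416 genes in the decile, 267, or 18.9%, had a log2 ratio at least as far from 0.

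BDH1, the beta-hydroxybutyrate dehydrogenase of the inner mitochondrial membrane, stood at the other end of the range. It spans 71964668 to 72000537 on the - strand of chromosome 1 (ENSBTAG00000000448). Its average level was -2.77 log2 CPM in the authors' deposited table, or 0.147 CPM, with only 2.20% of genes lower. Per kilobase of gene model, the average level of ACAT1 was 2205 times that of BDH1. The log2 ratio of BDH1 in the authors' deposited table was -0.76 (approximate 95% interval -1.39 to -0.12), a ratio of 0.593, at an unadjusted p of 0.0218 (adjusted p = 0.223). At such levels large ratios were common: 182 of the 1417 genes in its level decile, or 12.8%, had a log2 ratio at least as far from 0. The depth behind the BDH1 value is not known here, since no library column was used.

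Enzymes that interconvert ketone bodies or turn them back into acetyl-CoA had no common direction. Of 7 listed, 6 were in the table, 3 positive and 3 negative, with a median log2 ratio of 0.02, against -0.01 for all genes. At an unadjusted p under 0.05 there were 1 higher (ACAT1, which serves both directions) and 2 lower (BDH1 and AACS). These were 50% of the list, against 16% of all genes, and 0 passed over all genes. AACS, the cytosolic acetoacetyl-CoA synthetase that feeds acetoacetate into lipid synthesis, had a log2 ratio of -1.08 in the authors' deposited table, a ratio of 0.472, at an unadjusted p of 0.0119 (adjusted p = 0.174). OXCT1, the transferase that commits tissues to burn ketone bodies, averaged 2.28 log2 CPM and had a log2 ratio of -0.08 in the authors' deposited table, with an unadjusted p of 0.351. BDH2, also listed, averaged 5.33 log2 CPM and had a log2 ratio of 0.19 in the authors' deposited table, with an unadjusted p of 0.490. OXCT1 and BDH2 were named after their values were seen.

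**Figure D2:**
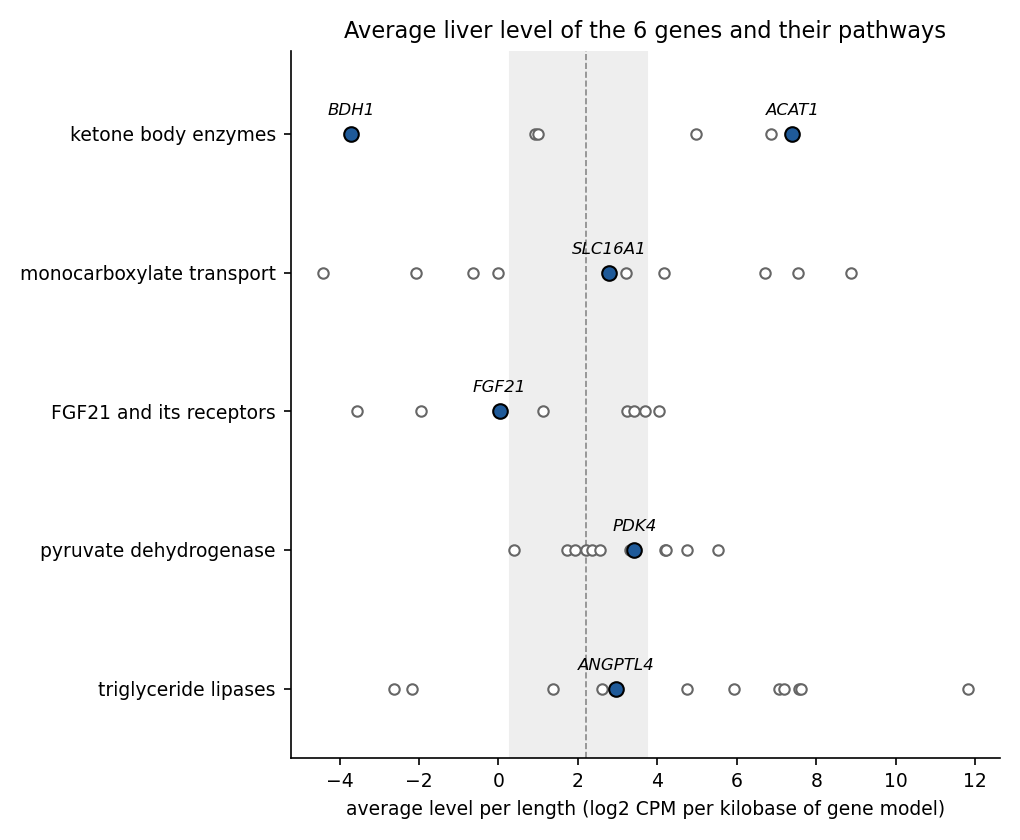
Average level per kilobase of gene model (log2 CPM per kilobase, from the authors' deposited averages and gene lengths) of the 6 genes (filled) and the other genes of their pathway lists (open); the grey band holds the middle of all genes between the quartiles 0.28 and 3.73, and the dashed line is their median of 2.21. ACAT1 lies at 7.40, BDH1 at -3.71 and FGF21 at 0.03, the last 2 below the band, while PDK4, ANGPTL4 and SLC16A1 lie inside it.

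By average level per kilobase the 6 genes ranked ACAT1 (7.40 log2 CPM per kilobase), PDK4 (3.42), ANGPTL4 (2.97), SLC16A1 (2.78), FGF21 (0.03) and BDH1 (-3.71). Between ANGPTL4 and SLC16A1 the order is close, and the spread over animals that would tell such neighbours apart was not used here.

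SLC16A1 encodes MCT1, a proton-linked membrane carrier of lactate, pyruvate and ketone bodies. The gene lies on chromosome 3 from 30382285 to 30411742 on the + strand (ENSBTAG00000015107). It averaged 4.44 log2 CPM in the authors' deposited table, or 21.7 CPM. The log2 ratio of SLC16A1 in the authors' deposited table was -0.27 (approximate 95% interval -0.52 to -0.02), a ratio of 0.829, at an unadjusted p of 0.0376 (adjusted p = 0.284). Of the 6 genes it was the one whose interval came closest to 0 without spanning it. Within its level decile, 144 of 1416 genes, or 10.2%, had a log2 ratio at least as far from 0.

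Another carrier of the family had the opposite sign. SLC16A6 (MCT7), known in zebrafish for exporting beta-hydroxybutyrate from liver cells, had a log2 ratio of 0.71 in the authors' deposited table (approximate 95% interval 0.30 to 1.12, unadjusted p = 0.00179, adjusted p = 0.0910). The difference between the 2 carriers was not tested. Other listed SLC16 carriers were SLC16A7 at -0.14 and SLC16A3 at -0.06, with the sign of SLC16A1, and SLC16A8 at 0.15. In the authors' deposited table their unadjusted p ran from 0.425 to 0.707, and they were named after their values were seen. MPC2, a subunit of the mitochondrial pyruvate carrier, had a log2 ratio of 0.24 in the authors' deposited table, with an adjusted p of 0.143. Of 11 transport genes listed, 10 were in the table, 7 positive and 3 negative, with a median log2 ratio of 0.20. There were 2 higher and 1 lower at an unadjusted p under 0.05, or 30% in all against 16% of all genes, and 0 passed over all genes.

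FGF21 is a hormone that liver secretes in fasting and other metabolic stress, and in mouse it raises fat oxidation and ketogenesis. The gene is short, from 55382972 to 55384709 on the + strand of chromosome 18 (ENSBTAG00000011624), with 3 exons and a gene model of 909 bases. FGF21 averaged -0.11 log2 CPM in the authors' deposited table, or 0.926 CPM, above 13.8% of genes. The log2 ratio of FGF21 in the authors' deposited table was -2.41 (approximate 95% interval -4.63 to -0.19), a SLICK to FREE ratio of 0.188 whose interval runs from 0.0404 to 0.877. Its p was 0.0349 unadjusted and 0.277 adjusted in the authors' deposited table.

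Only 23 genes had a more negative log2 ratio, which puts FGF21 at rank 24 of 14161. Of these 24 genes, 6 passed the adjusted threshold in the authors' deposited table, and FGF21 had the largest unadjusted p among them. The next largest p was 0.0259. Its implied standard error of 1.06 log2 units was 5.08 times the median of the 1416 genes in its level decile, and 8 of those, or 0.565%, had a log2 ratio at least as far from 0. Whether a few animals carry the FGF21 value was not tested, as no library value was used.

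**Figure D3:**
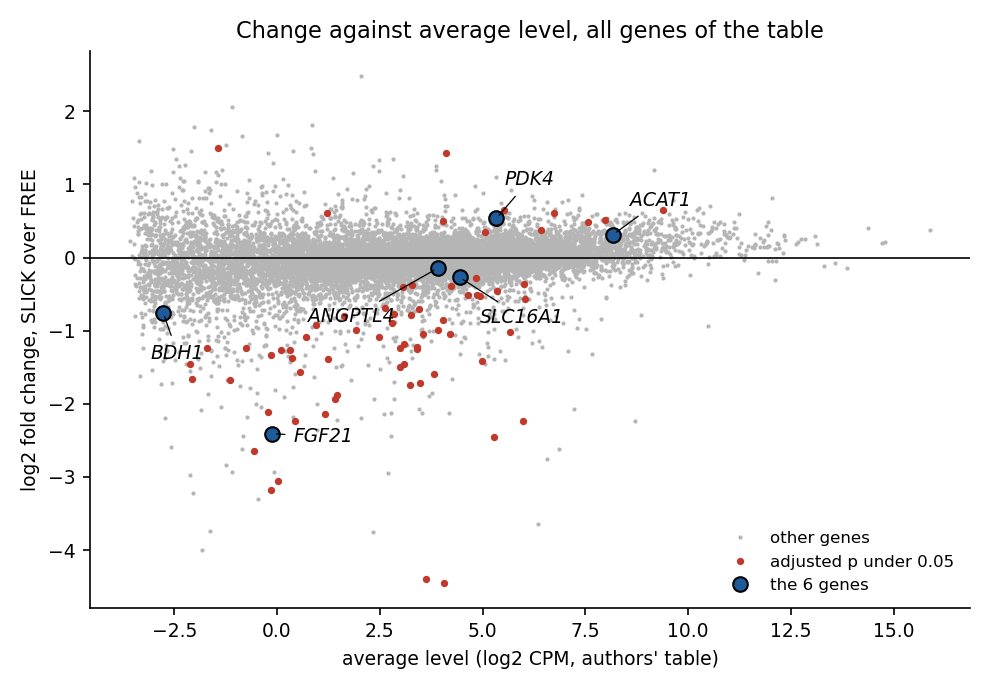
Log2 fold change, SLICK over FREE, against the average level in log2 CPM for all 14161 genes of the authors' deposited table, with the 6 genes in blue and the 71 genes past an adjusted p of 0.05 in red. FGF21 lies at -2.41 among the most negative genes, BDH1 at the lowest levels, and the other 4 close to the main cloud.

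Receptors of FGF21 were in the table too. KLB, the beta-klotho co-receptor that FGF21 needs, had a log2 ratio of 0.24 in the authors' deposited table (unadjusted p = 0.0749, adjusted p = 0.385). FGFR2 had a log2 ratio of 0.11 in the authors' deposited table, with an adjusted p of 0.590. Of 9 genes listed for FGF21, related hormones and their receptors, 8 were in the table, 5 positive and 3 negative, and FGF21 was the 1 gene with an unadjusted p under 0.05. That is 12.5% of the list, against 16% of all genes. The median log2 ratio of the list was 0.11, and 0 passed over all genes.

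Transcription factors known in mouse or human cells to act on the FGF21 gene mostly had positive values. PPARA had a log2 ratio of 0.30 in the authors' deposited table (approximate 95% interval 0.06 to 0.54, unadjusted p = 0.0158, adjusted p = 0.196). CREB3L3, a liver factor freed from the endoplasmic reticulum membrane that acts with PPAR alpha, had a log2 ratio of 0.54 in the authors' deposited table, with an adjusted p of 0.233. XBP1, a factor of the unfolded protein response, had a log2 ratio of -0.21 in the authors' deposited table, with an adjusted p of 0.201. All 15 factors listed were in the table, 11 positive and 4 negative, with a median log2 ratio of 0.10. After subtracting level decile medians it was 0.08. At an unadjusted p under 0.05 there were 5 higher and 1 lower, or 40% in all against 16% of all genes, and 0 passed over all genes.

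ANGPTL4 is a secreted inhibitor of lipoprotein lipase, which keeps blood triglyceride from being taken up by tissues in fasting. It lies on chromosome 7 from 17005585 to 17012660 on the + strand (ENSBTAG00000002473), and averaged 3.90 log2 CPM, or 15.0 CPM, in the authors' deposited table. The log2 ratio of ANGPTL4 in the authors' deposited table was -0.15 (approximate 95% interval -0.47 to 0.18), a ratio of 0.903, at an unadjusted p of 0.351 (adjusted p = 0.722). Ratios from 0.721 to 1.13 lie inside that interval, so a difference of either sign within them is not excluded. Among the 1416 genes of its level decile, 394, or 27.8%, had a log2 ratio at least as far from 0.

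The lipases LPL and LIPC had opposite signs. LPL, which ANGPTL4 inhibits, had a log2 ratio of -0.72 in the authors' deposited table (approximate 95% interval -1.14 to -0.31, unadjusted p = 0.00165, adjusted p = 0.0887). LIPC, the hepatic lipase, had a log2 ratio of 0.50 in the authors' deposited table (unadjusted p = 0.00144, adjusted p = 0.0876). APOC3, an apolipoprotein that slows triglyceride clearance and is also a hepatocyte marker, had a log2 ratio of 0.46 in the authors' deposited table, with an adjusted p of 0.134. All 12 genes listed were in the table, 9 positive and 3 negative, with a median log2 ratio of 0.15. After subtracting level decile medians it was 0.12. Of these 12, 5 were higher and 1 lower at an unadjusted p under 0.05, or 50% in all against 16% of all genes. The 12 genes had a median level of 6.41 log2 CPM, against 3.63 for all genes, and no share among genes of like level was computed. Over all genes 0 passed.

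PDK4 phosphorylates and so switches off the pyruvate dehydrogenase complex, the gate through which pyruvate is burned. It spans 12881889 to 12895362 on the - strand of chromosome 4 (ENSBTAG00000014069), and averaged 5.34 log2 CPM, or 40.4 CPM, in the authors' deposited table. The log2 ratio of PDK4 in the authors' deposited table was 0.54 (approximate 95% interval 0.08 to 0.99), a SLICK to FREE ratio of 1.45, at an unadjusted p of 0.0243 (adjusted p = 0.235). In its level decile 41 of 1416 genes, or 2.90%, had a log2 ratio at least as far from 0, and PDK4 ranked 312 of 14161 from the most positive.

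Of the other kinases of the complex, PDK1 and PDK2 had the same sign as PDK4. PDK1 had a log2 ratio of 0.34 in the authors' deposited table (unadjusted p = 0.00379, adjusted p = 0.112), and PDK2 had 0.38 (unadjusted p = 0.0171, adjusted p = 0.202). PDK3 was at -0.09 in the authors' deposited table, with an unadjusted p of 0.163, and was named after its value was seen. Of the 12 genes listed for the complex, its kinases and its phosphatases, all were in the table, 7 positive and 5 negative, with a median log2 ratio of 0.08. The 3 kinases PDK1, PDK2 and PDK4 were the ones with an unadjusted p under 0.05. They are 25% of the list, against 16% of all genes, and 0 passed over all genes.

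FGF21, ANGPTL4 and PDK4 are all known in mouse or human liver as targets of PPAR alpha, and in these data their log2 ratios were -2.41, -0.15 and 0.54 in the authors' deposited table. Most other listed targets were positive. Without these 3 genes, 20 targets were in the table, 17 positive and 3 negative, with a median log2 ratio of 0.25, or 0.15 after subtracting the median of each gene's level decile. At an unadjusted p under 0.05 there were 10 higher and 1 lower, or 55.0% in all against 16% of all genes, and 0 passed over all genes. These targets had a median level of 7.37 log2 CPM, against 3.63 for all genes, and no share among genes of like level was computed. The list was chosen with earlier results of these data known, so the share is no independent support for a pattern. CPT2, the inner carnitine palmitoyltransferase, had a log2 ratio of 0.37 in the authors' deposited table, with an adjusted p of 0.101. ACAA2, a mitochondrial thiolase of beta-oxidation, had 0.50 in the authors' deposited table, with an adjusted p of 0.120. CYP4A22, of the fatty acid hydroxylase family, had 1.68 at an average of -0.01 log2 CPM in the authors' deposited table (adjusted p = 0.116), and as it has close paralogs, reads shared with them may make the value uncertain, which was not tested.

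**Figure D4:**
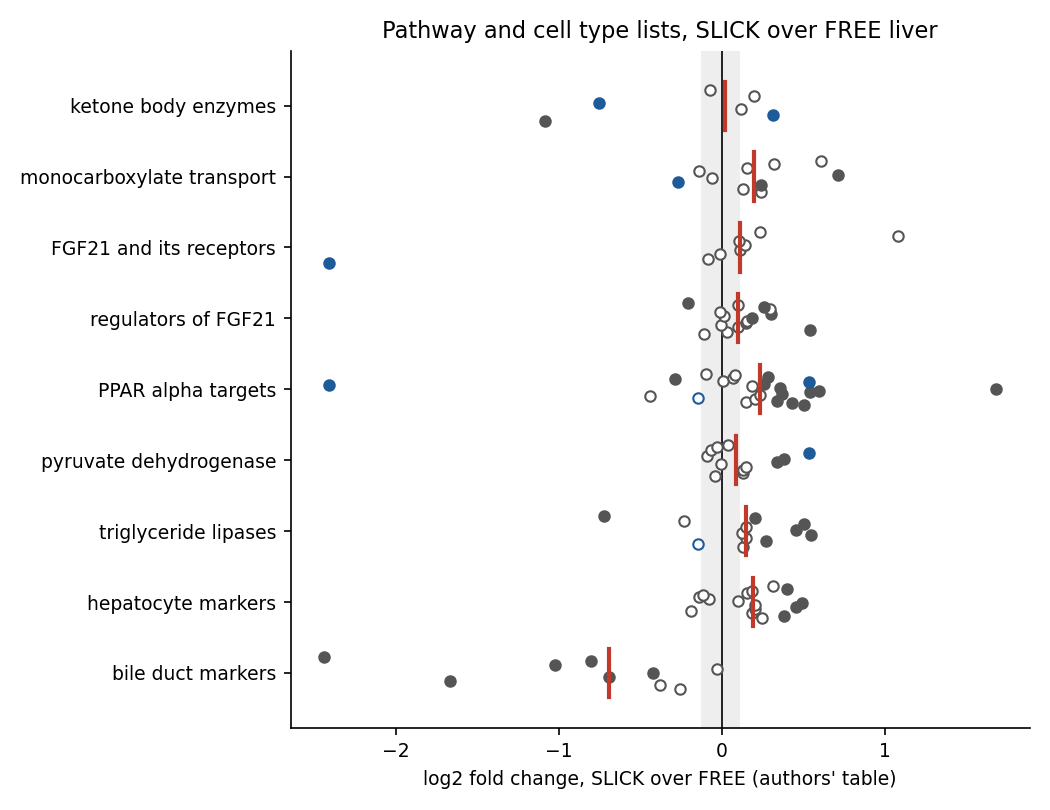
Log2 fold change, SLICK over FREE, of each gene of the pathway and cell type lists in the authors' deposited table; blue points are among the 6 genes, filled points have an unadjusted p under 0.05, red bars are list medians, and the grey band runs between the quartiles of all genes, -0.12 and 0.10. FGF21 lies far left of its receptors, its regulators and the other PPAR alpha targets, and all 9 bile duct markers are left of 0.

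The tissue label was checked against markers. All 16 hepatocyte markers were in the table with a median level of 12.5 log2 CPM, while 5 of 8 adipocyte markers, with a median of 1.56 log2 CPM, and 1 of 8 muscle markers were in it. Hepatocyte markers had a median log2 ratio of 0.19, or 0.09 after subtracting level decile medians, with 12 positive and 4 negative, and 4 higher and 0 lower at an unadjusted p under 0.05. The 4 at that threshold are 25% of the hepatocyte markers, against 16% of all genes. CPS1 had the smallest p, with 0.49 in the authors' deposited table. Of the bile duct markers, 9 of 10 were in the table, all 9 negative, with a median of -0.69 (-0.66 after subtracting level decile medians). Of these 9, 6 had an unadjusted p under 0.05, or 66.7% against 16% of all genes. CLDN4 had the smallest p of them, with -1.67 in the authors' deposited table. Of the adipocyte markers, LPL, which is also a lipase named above, had the smallest p, and the median of the 5 was -0.12. The muscle marker in the table, TNNT3, had -0.24 in the authors' deposited table (unadjusted p = 0.654). Leukocyte and Kupffer cell markers had a median of 0.05 over 10 genes, 8 positive and 2 negative. CD68 had the smallest p, with -0.28 in the authors' deposited table. It was the 1 gene of these 10 with an unadjusted p under 0.05, or 10% against 16% of all genes. Summed marker levels per genotype were not computed, as no library was tied to one, and the part of cell makeup in the values of the 6 genes was not tested. PRLR had a log2 ratio of -0.05 in the authors' deposited table (unadjusted p = 0.791); as the allele changes the protein, the level of its transcript is no check of the labels.

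Sire is split unevenly between the genotypes (5 of 10 SLICK and 1 of 8 FREE samples are by Blanco). No source used here says if the authors modelled sire, so genotype and sire cannot be fully told apart in any value above. The comparison table names 18 animals, of which 17 are also in the TruSeq count table, so whether it was made on the 18 labelled samples is not known.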

How the data were processed

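Liver RNA was sequenced from TruSeq libraries (18 samples) and SMARTer libraries (16 samples), per the labels' protocols. Per the submitters' processing notes, the ARS-UCD1.2 build, edgeR, featureCounts, Subread and HISAT2 2.1.0 were used, in no stated order. The SMARTer table was counted with featureCounts 1.6.2 on Ensembl release 100 gene models, strand-aware and with a minimum mapping quality of 10, per the file headers; no source used here says how TruSeq reads were counted. For slick against free the authors deposited, per gene, the F score of a test with its p-value, raw and adjusted, beside the log2 fold change and the mean level in log2 CPM. Any offset behind the log2 fold changes is not given, and it would pull those of low genes such as BDH1 towards 0.

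Across 4 tables, 70 columns hold values of single libraries under animal numbers found in no sample label, and none of them entered any step. Depth per sample is therefore not given, and precision is known through the authors' F alone. The quasi-likelihood fits planned on counts could not be fitted, and the deposited values took their place. Of 14246 rows, 85 that repeat a gene under a further symbol were dropped. The F and p of each of 469 genes gave 18.7 as the denominator degrees of freedom of the authors' test, and the approximate 95% interval is the fold change plus or minus the t quantile times its size divided by the square root of F. The code for the intervals and adjustments was run on simulated normal values, with the same form of F that the interval assumes. These held no counts or offset, so how well the intervals hold for low genes such as BDH1 and FGF21 was not tested. Levels per length are the average log2 CPM minus log2 of the gene model length in kilobases. Level deciles divide all genes by average log2 CPM.

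Members and lists (7 pathway lists, 5 cell type lists, 1 list added later) were chosen with earlier results of these data known. Named were the 6 genes, PRLR, the 3 genes with the smallest p of each pathway list and the gene with the smallest p of each cell type list. OXCT1, BDH2, PDK3, SLC16A3, SLC16A7, SLC16A8 and the 5 genes named from the list added later were chosen after their values were seen. A few genes of these pathways are not reported here. Each list is described by counts and its median only. Python 3.11.15, numpy 2.4.6, pandas 2.3.3, scipy 1.17.1 and matplotlib 3.10.9 were used.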

Additional observations from a re-analysis of the deposited data

How the results depend on the processing

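The log2 ratios of all 6 genes kept their sign when the median of all genes (-0.01) or that of the level decile was subtracted; by the second, ACAT1 stood at 0.21 and FGF21 at -2.34. The members past an adjusted p of 0.05 stayed at 0 with Benjamini-Hochberg adjustment over the 14161 genes or over the 12131 genes of at least 0 log2 CPM. Of all genes, 19 and 18 then passed as higher and 71 and 59 as lower, against 13 and 58 as deposited. With members of at least 0 log2 CPM only, an alternative chosen after seeing the data, 3 rather than 5 had an unadjusted p under 0.05. BDH1 and FGF21 fall under that level and so leave the set itself. Of the members kept, ANGPTL4 alone had a larger p. The median of the ketone body enzyme list turned to -0.0098, against 0.02 as deposited, with the level median subtracted, and the other 6 pathway medians kept their sign, that of the PPAR alpha targets going to 0.13, against 0.23 as deposited.

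No paired analysis was possible because the library columns carry no replicate number and no group. For the same reason the planned count fits, DESeq2, filters on low counts, the sire term and leaving out replicates were not run, so whether 1 animal decides a value was not tested.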

Other observations

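FGF21 and ANGPTL4 were also set beside other proteins that liver secretes with endocrine or metabolic roles, a list made after the values of the 6 genes were seen. Of 27 listed, 25 were in the table, 16 positive and 9 negative, with a median log2 ratio of 0.14, or 0.04 after subtracting the median of each gene's level decile. At an unadjusted p under 0.05 there were 6 higher and 4 lower, or 40% in all against 16% of all genes. Of all genes, 7.22% passed as higher and 8.79% as lower. GDF15, a stress-induced hormone that acts on the hindbrain to lower food intake, was the 1 gene of the list that passed over all genes. Of all 14161 genes, 0.501% passed. GDF15 in the authors' deposited table fell by 1.26 on the log2 scale (approximate 95% interval -1.77 to -0.75, adjusted p = 0.0459), at an average of 0.32 log2 CPM.

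FST, follistatin, which binds activins, had a log2 ratio of -1.20 in the authors' deposited table (unadjusted p = 0.00100, adjusted p = 0.0778). FETUB, a liver protease inhibitor, had -0.79 in the authors' deposited table (adjusted p = 0.0645). With FGF21 these were the 4 lower genes of the list at that threshold. Among the higher ones, and named like the others after their values were seen, SELENOP, the plasma carrier of selenium, had a log2 ratio of 0.31 in the authors' deposited table (adjusted p = 0.187), and ANGPTL6 had 0.27 (adjusted p = 0.215).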
